A study of Homo sapiens with 4 samples.

Results

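The genes that license replication origins and that build and run the replication fork were examined in SHMT2-knockdown and control colorectal cancer cells. The list was chosen by function, with earlier results of these data known. It holds 49 genes, and all 49 had a row among the 26364 gene symbols of the count table. Each of the 49 reached the limit for testing, 10 or more counts in 2 or more libraries, as did 14024 genes in all. SW480 and SW620 are established lines of human colorectal cancer. RNA of both lines was sequenced with SHMT2 knockdown and as a control, giving 4 libraries, 1 for each cell line and condition. In the knockdown cells, doxycycline switches on a short hairpin RNA against SHMT2, which encodes the mitochondrial serine hydroxymethyltransferase. The labels name the other library of each line only as control, while the paper calls the comparison cells control shRNA cells, and whether these received doxycycline is not given in the sources used here. The comparison asks which transcripts of the replication machinery differ after SHMT2 knockdown, in a study of SHMT2 and colorectal cancer cell proliferation.

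Eukaryotic cells license origins before S phase. The origin recognition complex (ORC) and CDC6 load the ring of MCM2 to MCM7 onto DNA with CDT1, and geminin (GMNN) and the DTL ubiquitin ligase adaptor keep CDT1 from acting again in S phase. CDC45 and the GINS complex then turn the loaded ring into the active helicase, with MCM10. Behind it work polymerase alpha and primase, polymerases delta and epsilon, the sliding clamp PCNA with its loader RFC, and the nuclease FEN1 and the ligase LIG1, which join Okazaki fragments. Many of these genes are known targets of E2F factors, which drive transcription at the passage from G1 into S phase.

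The promoters of 42 of the 49 genes were in the RefSeq table used here (GRCh38.p14, 250 bases before to 50 bases after the start). MCM4, MCM5, GINS4, DSCC1, POLD3, RPA2 and RPA3 had no entry. The E2F motif searched was TTTCCCGC, TTTCGCGC, TTTGCCGC or TTTGGCGC on either strand, and overlapping matches were merged. It stood in 19 of the 42 promoters (45.2%), against 3.34% of all 27305 promoters of the table and 5.31% of the 10315 promoters of genes tested. It stood in 12 of 20 (60%) of the genes that were lower after SHMT2 knockdown at an unadjusted P up to 0.05, and in 7 of 22 (31.8%) of the others. This difference was not tested, and a match is a run of letters, not evidence of a bound factor. A CCAAT box, searched as CCAAT on either strand, stood in 57.1% of the 42 promoters and in 35.7% of all. It stood in 55.0% of the 20 lower genes and in 59.1% of the 22 others.

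The 250 bases before and 20 bases after the start are shown for the 3 genes that fell at an adjusted p under 0.05 (CDC6, MCM10, PCNA), for MCM6, whose promoter holds the motif at 2 places, and for POLA1, which holds it and was not called. Capitals mark the motif matches, and each sequence reads along the strand of its gene. MCM6 is chr2:135876424-135876693 on the minus strand, CDC6 is chr17:40287629-40287898 on the plus strand, and MCM10 is chr10:13161308-13161577 on the plus strand. PCNA is chr20:5126603-5126872 on the minus strand and POLA1 is chrX:24693668-24693937 on the plus strand (GRCh38.p14).
MCM6: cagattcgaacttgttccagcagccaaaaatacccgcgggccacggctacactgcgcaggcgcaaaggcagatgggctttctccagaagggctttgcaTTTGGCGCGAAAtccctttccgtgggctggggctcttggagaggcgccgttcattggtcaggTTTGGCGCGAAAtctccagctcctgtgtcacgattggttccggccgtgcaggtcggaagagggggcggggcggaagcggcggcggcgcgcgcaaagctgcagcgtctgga
CDC6: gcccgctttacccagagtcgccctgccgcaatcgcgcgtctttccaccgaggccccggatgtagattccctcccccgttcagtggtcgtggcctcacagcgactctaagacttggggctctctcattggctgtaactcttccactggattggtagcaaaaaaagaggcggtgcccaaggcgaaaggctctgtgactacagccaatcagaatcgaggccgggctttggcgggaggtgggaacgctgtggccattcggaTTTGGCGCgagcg
MCM10: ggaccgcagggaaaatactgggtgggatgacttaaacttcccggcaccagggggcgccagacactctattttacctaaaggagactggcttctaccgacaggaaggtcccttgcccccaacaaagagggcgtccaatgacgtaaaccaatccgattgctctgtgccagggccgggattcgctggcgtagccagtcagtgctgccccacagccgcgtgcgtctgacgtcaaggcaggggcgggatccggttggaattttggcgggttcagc
PCNA: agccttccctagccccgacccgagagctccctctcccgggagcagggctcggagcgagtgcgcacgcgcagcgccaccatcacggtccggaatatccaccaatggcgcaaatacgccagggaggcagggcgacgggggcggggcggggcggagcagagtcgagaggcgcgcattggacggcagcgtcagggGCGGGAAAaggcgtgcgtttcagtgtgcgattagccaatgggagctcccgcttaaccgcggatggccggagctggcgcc
POLA1: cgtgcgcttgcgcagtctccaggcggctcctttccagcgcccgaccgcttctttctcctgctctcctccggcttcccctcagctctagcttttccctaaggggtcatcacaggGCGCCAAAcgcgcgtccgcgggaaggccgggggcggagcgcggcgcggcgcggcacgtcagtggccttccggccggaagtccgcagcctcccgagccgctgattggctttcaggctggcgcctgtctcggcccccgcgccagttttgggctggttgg
In MCM6 both matches read TTTGGCGCGAAA, with their first bases 152 and 90 bases before the start. The match of CDC6 begins 8 bases after the start, that of PCNA 59 bases before it and that of POLA1 137 bases before it. MCM10 has no match in this window.

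The libraries held 5530129 to 13774288 counts, and the 49 genes took 0.482% to 0.813% of them. Every count of a member lay between 104 and 9096. The knockdown library was the shallower of the pair in SW480 and the deeper in SW620. SHMT2 (chr12:57229327-57234935, GRCh38) was examined first because it checks the labels. In SW480 its count was 2661 in the control and 205 with knockdown, and in SW620 it was 3751 in the control and 640 with knockdown. The log2 fold change was -3.54 (standard error 0.12). SHMT2 overlaps NDUFA4L2, which had 6 to 68 counts, on the other strand. Of 11 markers of colorectal epithelium, 5 were above 10 CPM (counts scaled by TMM to a common library size) in every library, and CDX1 was at 0 in all. VIL1, an epithelial villin, was at 372 to 380 CPM in SW620 and at 0.151 to 0.208 CPM in SW480. The summed markers were at 20.4 to 30.4 CPM for fibroblasts, 5.28 to 11.6 CPM for leukocytes and 0.733 to 2.26 CPM for endothelium.

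Compared with control cells, replication transcripts were lower in SHMT2-knockdown cells by a small amount that ran through most of the list. The median log2 fold change over both lines was -0.25 for the 49 genes and 0.01 for all genes tested. Within the lines the median was -0.29 in SW480 and -0.20 in SW620. Of the 49 genes, 41 were lower in both lines (24.7% of all genes tested were), 8 had opposite directions and 0 were higher in both. Of all 14024 genes tested, 6392 had opposite directions and 3792 were higher in both. The summed level of the 49 genes was 5769 CPM in control and 4679 CPM in SHMT2-knockdown SW480 cells, and 8246 and 7151 CPM in SW620.

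Few of these differences passed the test gene by gene. At an adjusted p under 0.05 (edgeR quasi-likelihood test of a model of line and treatment, Benjamini-Hochberg adjusted over the 14024 genes), 3 of the 49 were lower, where 1.17% of all genes were. None was higher (0 of 49, against 0.492% of all genes). At an unadjusted P up to 0.05, 23 of the 49 were lower (4.91% of all genes) and 0 were higher (4.15% of all genes). The DESeq2 Wald test also had 0 higher at either limit. It called 1 lower after adjustment and 10 lower at the unadjusted limit. The shares of all genes given above are those of the main edgeR fit, and none was taken for the alternatives. After adjustment edgeR called 0 with a limit of 50 counts and 1 with total counts or with libraries thinned to the smallest total, and the 1 gene kept in these was PCNA. With 1 library for each line and condition, the P values rest on how far SW480 and SW620 disagree in their knockdown difference. This spread was shared across genes and may be technical or a difference between the lines. The spread between cultures of the same line was not measured. In RNA from whole cultures, fewer cells in S phase and less transcript in each cell cannot be told apart. The paper reports, by flow cytometry, a lower S-phase percentage in SW480 and SW620 after SHMT2 silencing. The part of this in the RNA differences was not tested.

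**Figure D1:**
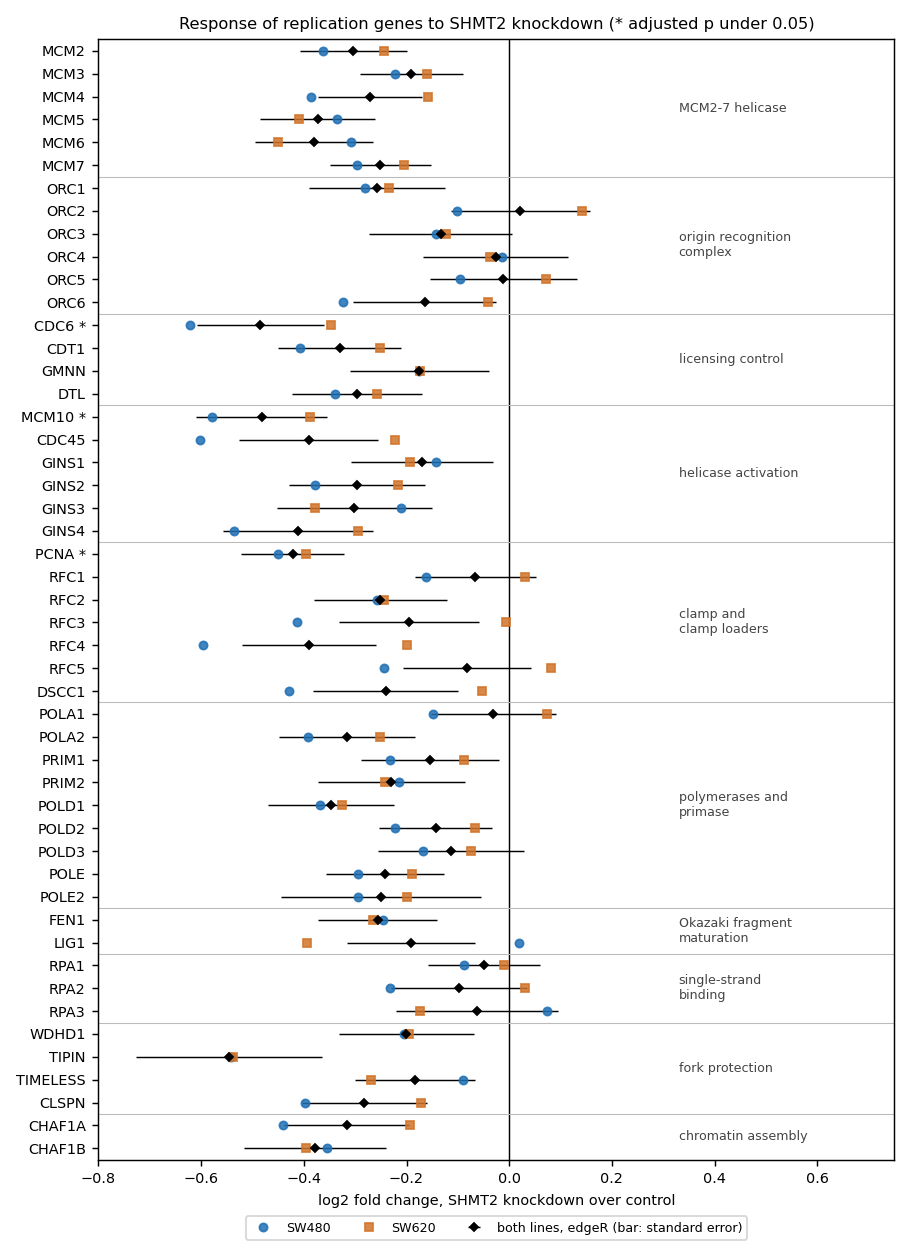
Log2 fold change of SHMT2 knockdown over control for each of the 49 genes, grouped by role. Circles are SW480, squares SW620 and diamonds both lines, with a standard error derived from the edgeR fold change and test statistic. Of the 49 diamonds, 48 lie below 0, and asterisks mark CDC6, MCM10 and PCNA.

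The MCM2 to MCM7 subunits, which form the helicase ring, were lower in both lines in 6 of 6 cases. Their median log2 fold change was -0.29, and 5 of the 6 were lower at an unadjusted P up to 0.05. MCM5 (chr22:35400063-35425430) was at 238 CPM in control and 188 CPM in SHMT2-knockdown SW480 cells, and at 243 and 183 CPM in SW620. Both control libraries lay above both knockdown libraries. The log2 fold change of MCM5 was -0.37 (standard error 0.11), and it missed the limit after adjustment (adjusted p = 0.053, edgeR quasi-likelihood test, Benjamini-Hochberg adjusted). MCM6 was at 170 and 137 CPM in SW480 and at 251 and 184 CPM in SW620, so its SW620 knockdown value was above its SW480 control. MCM6 had a log2 fold change of -0.38 and also missed it (adjusted p = 0.0545 by the same edgeR test). MCM2 had a log2 fold change of -0.30, MCM4 of -0.27 and MCM7 of -0.25, each at an unadjusted P up to 0.05. MCM3 did not pass, at -0.19. MCM2 and MCM7 share exon sequence with TPRA1 and AP4M1 on the other strand, which had 146 to 351 and 130 to 275 counts.

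ORC, which marks origins and is needed before the ring can be loaded, had 0 of 6 subunits past either limit. Its median log2 fold change was -0.08. ORC1 (chr1:52372829-52404459), the subunit with the smallest P, was at 60.7 CPM in control and 49.9 CPM in SHMT2-knockdown SW480 cells, and at 82.5 and 70.1 CPM in SW620. The level was lower after knockdown within each line, and the line values overlapped between the conditions. The log2 fold change of ORC1 was -0.26 (standard error 0.13). The highest values in the whole list were those of ORC2 (0.02), ORC5 (-0.01) and ORC4 (-0.03). ORC4 shares exon sequence with ACVR2A and MBD5 on the other strand, with 35 to 131 and 68 to 228 counts. The signs of ORC4 and ORC5 turned with thinned libraries and with total counts, respectively. These are differences of nearly 0 with standard errors of 0.14, and they do not show that ORC transcripts were unaffected.

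Of the 4 genes that control licensing, 3 were lower at an unadjusted P up to 0.05 and 1 of them passed after adjustment. CDC6 (chr17:40287633-40304657), the ATPase that joins ORC to load the ring, was at 131 CPM in control and 85.1 CPM in SHMT2-knockdown SW480 cells. In SW620 it was at 114 CPM in control and 89.5 CPM in SHMT2-knockdown cells. Both control libraries lay above both knockdown libraries. CDC6 fell to 71.5% of control over both lines, a log2 fold change of -0.48 (standard error 0.12, adjusted p = 0.00922, edgeR quasi-likelihood test, Benjamini-Hochberg adjusted). The log2 fold change was -0.62 in SW480 (95% counting interval -0.77 to -0.48) and -0.35 in SW620 (-0.49 to -0.21). These within-line intervals are exact binomial ones, and counting intervals here and throughout cover counting error only. CDT1, which delivers the ring to the origin, had a log2 fold change of -0.33, and DTL, part of the ligase that degrades CDT1, had -0.30. Geminin, the inhibitor of CDT1, did not pass the test, at -0.17 in both lines.

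The genes that activate the helicase were lower in both lines in 6 of 6 cases, with a median log2 fold change of -0.35. Of these, 5 were lower at an unadjusted P up to 0.05. MCM10 (chr10:13161554-13211104), which acts as the loaded ring is converted into a moving helicase, was at 91.8 CPM in control and 61.4 CPM in SHMT2-knockdown SW480 cells. In SW620 it was at 106 CPM in control and 81.0 CPM in SHMT2-knockdown cells, so both controls lay above both knockdown libraries. MCM10 fell to 71.6% of control, a log2 fold change of -0.48 (standard error 0.13, adjusted p = 0.0149, edgeR quasi-likelihood test, Benjamini-Hochberg adjusted). Its log2 fold change was -0.58 in SW480 (counting interval -0.75 to -0.41) and -0.39 in SW620 (-0.54 to -0.24). CDC45, a helicase subunit, had a log2 fold change of -0.39. Its value was -0.60 in SW480 (counting interval -0.86 to -0.35) and -0.22 in SW620 (-0.37 to -0.07). Of the 4 GINS subunits, GINS4 had -0.41, GINS3 -0.30 and GINS2 -0.30, and GINS1 did not pass, at -0.17. GINS2 shares exon sequence with GSE1 on the other strand, and GSE1 had 952 to 3233 counts against 342 to 946 for GINS2.

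PCNA (chr20:5114953-5126626), the sliding clamp that holds polymerases on DNA, had the smallest P of the 49 genes. It was at 366 CPM in control and 268 CPM in SHMT2-knockdown SW480 cells, and at 791 and 601 CPM in SW620. The level was lower after knockdown in each line, and both SW620 libraries lay above both SW480 libraries. PCNA fell to 74.6% of control, a log2 fold change of -0.42 (standard error 0.10, adjusted p = 0.00367, edgeR quasi-likelihood test, Benjamini-Hochberg adjusted). The change was -0.45 in SW480 (counting interval -0.53 to -0.37) and -0.40 in SW620 (-0.45 to -0.34). The row of its antisense RNA, PCNA-AS1, held 1962 counts in the SW480 control and 997 with knockdown, and 2481 and 4573 counts, in the same order, for SW620. This was 55.8% to 57.5% of the PCNA count in every library. The use of strand in counting is not given in the sources used here, so reads of the 2 genes cannot be told apart.

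Of the loaders that open and close the clamp, only RFC4 was lower at an unadjusted P up to 0.05, with a log2 fold change of -0.39. It was -0.60 in SW480 (counting interval -0.79 to -0.41) and -0.20 in SW620 (-0.35 to -0.05). RFC4 shares exon sequence with EIF4A2 on the other strand, which had 1535 to 4078 counts against 328 to 1153 for RFC4. RFC1, RFC2, RFC3, RFC5 and DSCC1, a subunit of the alternative loader, lay between -0.25 and -0.07. Every one of these 6 loaders, and PCNA, was lower in SW480 than in SW620 in its knockdown difference, and RFC1 and RFC5 had opposite signs in the lines. RFC5 shares exon sequence with WSB2 on the other strand, which had 473 to 1371 counts against 511 to 1333 for RFC5.

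**Figure D2:**
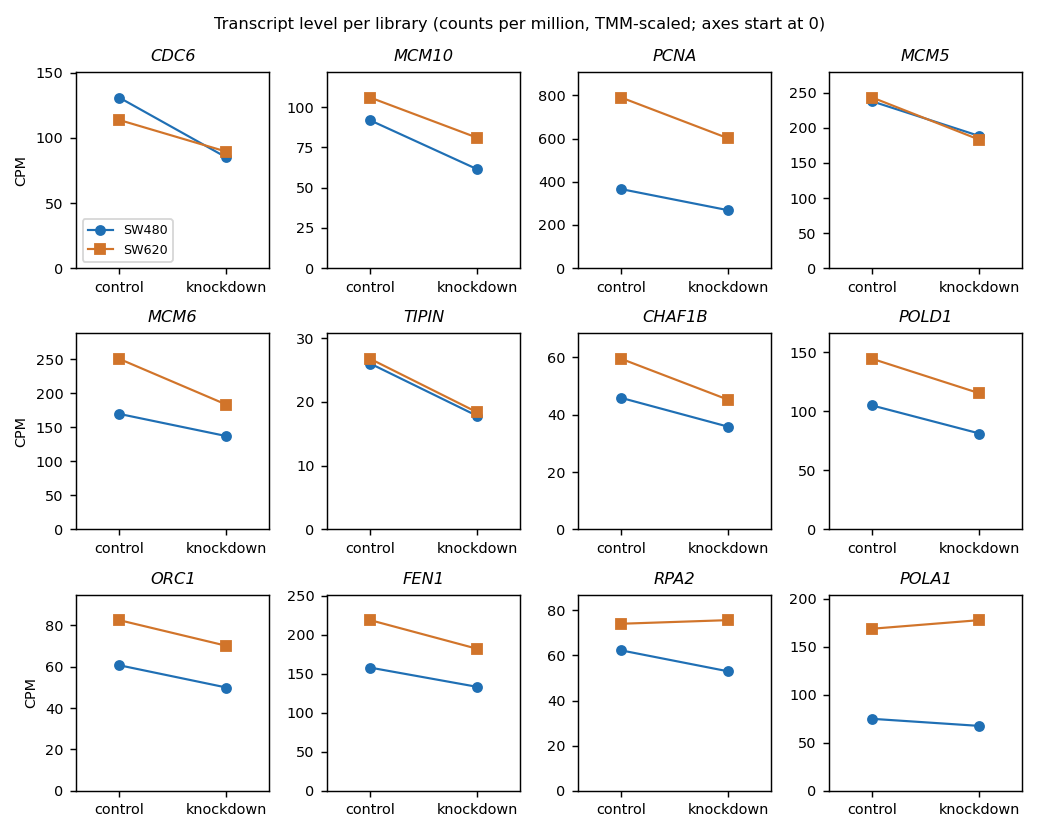
Level in CPM of 12 genes in each library, with control left and SHMT2 knockdown right, circles for SW480 and squares for SW620, and 1 linear axis from 0 for each gene. Lines join the 2 libraries of a cell line and fall in both lines for all but RPA2 and POLA1, where the SW620 line goes from 74.1 to 75.7 and from 169 to 178 CPM.

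The polymerases and primase had a median log2 fold change of -0.23, and 3 of 9 were lower at an unadjusted P up to 0.05. POLD1 (chr19:50384204-50418016), the catalytic subunit of polymerase delta, was at 105 CPM in control and 81.1 CPM in SHMT2-knockdown SW480 cells, and at 144 and 115 CPM in SW620. The SW620 knockdown value was above the SW480 control. Its log2 fold change was -0.35 (standard error 0.12). POLA2, the accessory subunit of polymerase alpha, had -0.32, and POLE, the catalytic subunit of polymerase epsilon, had -0.24. The catalytic subunit POLA1 had a value of -0.03, with -0.15 in SW480 and 0.07 in SW620. PRIM1, PRIM2, POLD2, POLD3 and POLE2 did not pass and lay between -0.25 and -0.11. PRIM1 shares exon sequence with NACA on the same strand, which had 3392 to 12029 counts against 242 to 993 for PRIM1.

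FEN1 (chr11:61792637-61797244), the flap nuclease, was at 158 CPM in control and 133 CPM in SHMT2-knockdown SW480 cells, and at 219 and 182 CPM in SW620. It was lower after knockdown within each line, with the lines overlapping. Its log2 fold change was -0.26 (standard error 0.12), at an unadjusted P of 0.0274. FEN1 overlaps FADS2 on the same strand, with 116 to 301 counts, and TMEM258 on the other, with 152 to 419 counts. LIG1, the ligase that seals Okazaki fragments, was at 91.5 and 92.8 CPM in SW480 and at 124 and 94.3 CPM in SW620, control first. Its log2 difference was 0.02 in SW480 (counting interval -0.13 to 0.17) and -0.39 in SW620 (-0.53 to -0.26).

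The 3 subunits of RPA, which coats single-stranded DNA, were all short of the limit, with a median log2 fold change of -0.06. RPA2 (chr1:27891524-27914746), the subunit with the smallest P, was at 62.3 CPM in control and 52.9 CPM in SHMT2-knockdown SW480 cells, and at 74.1 and 75.7 CPM in SW620. Its direction differed between the lines, and its log2 fold change over both was -0.10 (standard error 0.13). RPA1 had -0.05 and RPA3 had -0.06. RPA1 shares exon sequence with SMYD4 and RPA3 with UMAD1, each on the other strand, with 141 to 427 and 86 to 320 counts.

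Of the 4 genes that protect and signal from the fork, 2 were lower at an unadjusted P up to 0.05, and 4 were lower in both lines. TIPIN (chr15:66336206-66386746), the partner of TIMELESS, was at 26.0 CPM in control and 17.8 CPM in SHMT2-knockdown SW480 cells, and at 26.8 and 18.4 CPM in SW620. Both controls lay above both knockdown libraries by nearly the same amount in each line. Its log2 fold change of -0.55 was the lowest of the 49 genes, but TIPIN had only 118 to 250 counts and a standard error of 0.18. After adjustment it was not called (adjusted p = 0.108, edgeR quasi-likelihood test, Benjamini-Hochberg adjusted). CLSPN, the adaptor that relays fork stress to CHK1, had -0.28. TIMELESS had -0.18 and WDHD1, which tethers polymerase alpha to the helicase, had -0.20, and neither passed.

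Both large subunits of chromatin assembly factor 1, which deposits histones behind the fork, were lower at an unadjusted P up to 0.05. CHAF1B (chr21:36385378-36419015) was at 45.8 CPM in control and 35.7 CPM in SHMT2-knockdown SW480 cells, and at 59.4 and 45.1 CPM in SW620. It was lower after knockdown in each line, and the SW620 knockdown value was just below the SW480 control, so both controls lay above both knockdown libraries. The log2 fold change of CHAF1B was -0.38 (standard error 0.14). CHAF1A had -0.32, with -0.44 in SW480 and -0.19 in SW620. CHAF1B shares exon sequence with MORC3 on the same strand, with 180 to 554 counts, and CHAF1A with UBXN6 on the other, with 412 to 890 counts.

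The knockdown difference was lower in SW480 than in SW620 for 38 of the 49 genes (77.6%), against 50.2% of all genes tested. The counting interval of the difference between the lines lay below 0 for 15 of the 49, above 0 for 2 and held 0 for 32. It was computed for the 49 genes only, so these counts have no share of all genes beside them. These intervals leave out the spread between cultures, and the difference between the lines was not tested. The genes with the lowest SW480 minus SW620 values were RFC3 (-0.41), RFC4 (-0.40), CDC45 (-0.38) and DSCC1 (-0.38), chosen after their values were seen. The 2 genes with an interval above 0 were LIG1 (0.41) and TIMELESS (0.18). The 4 libraries also differed in depth, with 2.49 times as many counts in the SHMT2-knockdown SW620 library as in its control, and the part of depth in this difference was not tested.

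A further 45 genes of origins, forks and replicating chromatin outside the list were all among the genes tested. Of these, 1 was lower at an adjusted p under 0.05, a share near the 1.17% of all genes, and 9 at an unadjusted P up to 0.05 (4.91% of all genes). In edgeR's test 0 were higher at either limit. Their median log2 fold change was -0.14, and 24 of the 45 were lower in both lines (24.7% of all genes tested). The one called was DNA2, a nuclease and helicase that trims long flaps. It was at 21.2 CPM in control and 14.9 CPM in SHMT2-knockdown SW480 cells, and at 61.8 and 37.7 CPM in SW620. DNA2 fell with a log2 fold change of -0.63 (standard error 0.16, adjusted p = 0.00628, edgeR quasi-likelihood test, Benjamini-Hochberg adjusted). The DESeq2 Wald test did not call DNA2. The list of 54 G2/M marker genes of the Seurat package had a median of -0.22. Of the 54, 49 were lower in both lines, as were 41 of the 49 replication genes. Among these markers, 7 were lower at an adjusted p under 0.05 (1.17% of all genes) and 26 at an unadjusted P up to 0.05 (4.91%).

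The same fit compared the lines. SW480 and SW620 were derived from a primary tumour and a lymph node metastasis of one patient. Of the 49 genes, 34 were higher in SW620 at an adjusted p under 0.05, where 32.3% of all genes tested were. Only CDT1 was lower (1 of 49, against 31.3% of all genes), and 14 were not called. The median log2 difference, SW620 over SW480, was 0.45 over the 49 genes and 0.01 over all genes. It was 0.43 between the controls and 0.48 between the SHMT2-knockdown cells. With 1 library of each condition in each line, these values describe the cultures sequenced.

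**Figure D3:**
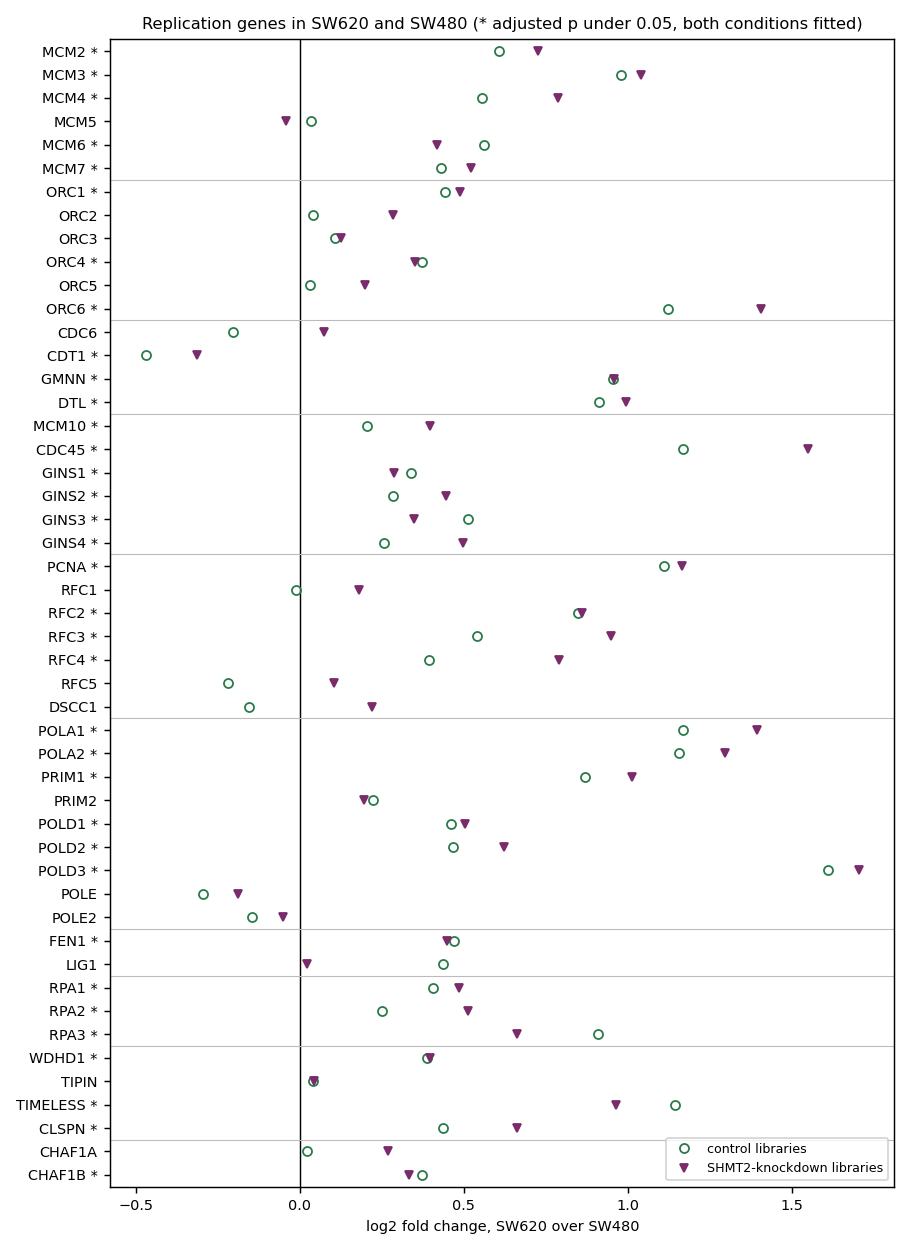
Log2 difference of SW620 over SW480 for each of the 49 genes, between the control libraries (open circles) and between the SHMT2-knockdown libraries (triangles). Asterisks mark the 34 genes called higher and CDT1, called lower. POLD3 lies farthest right and CDT1 farthest left, and most points lie to the right of 0 in both conditions.

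POLD3, an accessory subunit of polymerase delta, differed most between the lines. It was at 23.7 CPM in control and 21.1 CPM in SHMT2-knockdown SW480 cells, and at 73.0 and 69.3 CPM in SW620, so the lines did not overlap. This is 3.17-fold higher in SW620 (log2 1.67, standard error 0.14, adjusted p = 2.1e-29, edgeR quasi-likelihood test, Benjamini-Hochberg adjusted). PCNA was 2.20-fold higher (adjusted p = 5.91e-28) and POLA1 2.43-fold higher (adjusted p = 2.64e-24) in SW620 by the same edgeR test. POLA1 was at 74.96 and 67.6 CPM in SW480 and at 169 and 178 CPM in SW620, control first. CDC45 (log2 1.35), ORC6 (1.27), POLA2 (1.23), TIMELESS (1.06) and MCM3 (1.01) were also more than 1 log2 unit higher in SW620. These genes belong to 6 of the 10 role groups.

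A difference between 0.59 and 0.96 on the log2 scale was found for GMNN, DTL, PRIM1, RFC2, RPA3, RFC3, MCM4, MCM2 and RFC4. A smaller one, between 0.30 and 0.55, was called for CLSPN, POLD2, MCM6, POLD1, MCM7, ORC1, FEN1, RPA1, GINS3, WDHD1, RPA2, GINS4, GINS2, ORC4, CHAF1B, GINS1 and MCM10. All 6 activation genes and all 3 RPA subunits were higher in SW620. The part of the overlapping genes given above, such as NACA for PRIM1, in these line differences was not tested. CDT1 was at 174 and 131 CPM in SW480 and at 125 and 105 CPM in SW620, control first. It was lower in SW620 by a log2 value of -0.39 (adjusted p = 0.00212, edgeR quasi-likelihood test, Benjamini-Hochberg adjusted). POLE had -0.24, short of the limit (adjusted p = 0.0534 by that edgeR test), and it was called with DESeq2's size factors, with total counts and with a limit of 50 counts. CDC6 (-0.07), MCM5 (-0.00) and TIPIN (0.04), each lower after SHMT2 knockdown at an unadjusted P up to 0.05, were not called between the lines. The median knockdown difference was -0.25 over the 34 genes higher in SW620, of which 31 were lower in both lines. It was -0.24 over the other 15, of which 10 were lower in both lines, and the sets were not compared by a test.

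Levels of subunits of 1 complex were compared per kilobase of transcript, using the length of the longest basic protein-coding transcript in GENCODE 29, so the scale here is CPM per kilobase. MCM6 had the lowest level of the helicase ring in all 4 libraries, and MCM7 in SW480 and MCM3 in SW620 the highest. The highest was 3.51 to 4.29 times the lowest. In SW620, MCM3 was close to MCM7, at 235 against 231 CPM per kilobase in control and 211 against 200 with knockdown. In GINS, GINS2 was highest and GINS4 lowest in each library. In ORC, ORC4 was lowest in each library, with ORC5 highest in SW480 and ORC6 highest in SW620. These orders depend on the transcript length taken for each gene.

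RPA1 was above RPA2 and RPA2 above RPA3 in every library, and POLE above POLE2. Among the listed subunits, those of polymerase delta had the widest spread, with POLD2 above POLD1 above POLD3 in every library. POLD4, POLE3 and POLE4 are outside the list and were not part of this comparison. POLD2 was 16.0 and 15.4 times POLD3 in control and SHMT2-knockdown SW480 cells, and 7.18 and 7.22 times in SW620. The ratio was higher in SW480 than in SW620 in both conditions. In polymerase alpha and primase, PRIM1 was highest in all 4 libraries, while POLA2 was lowest in SW480 and PRIM2 lowest in SW620. PRIM1 shares exon sequence with NACA on the same strand, which had 3392 to 12029 counts. The part of this overlap in the rank of PRIM1 was not tested.

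**Figure D4:**
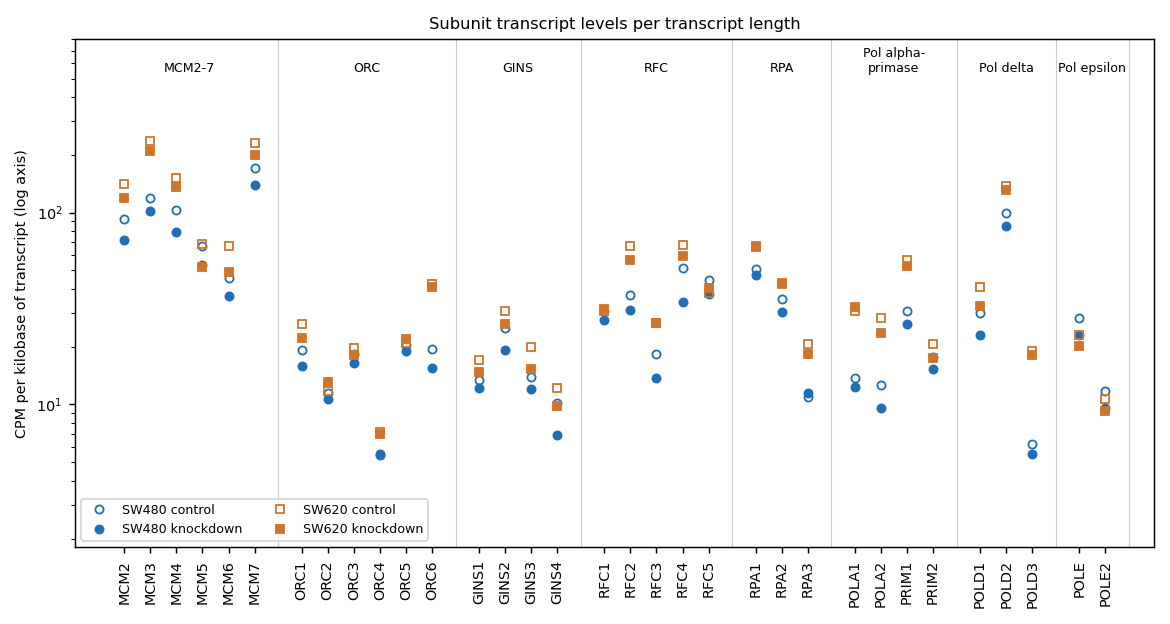
Level of the listed subunits of 8 complexes in CPM per kilobase of transcript on a log axis, in each of the 4 libraries. Open symbols are control and filled symbols SHMT2 knockdown, with circles for SW480 and squares for SW620. POLD3 and ORC4 have the lowest levels in SW480, between 5.48 and 6.21 CPM per kilobase.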

How the data were processed

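RNA was sequenced from SW480 and SW620 cells, with SHMT2 knockdown and as controls (Illumina TruSeq libraries per the labels, whereas the study's methods name a microarray). The values the authors deposited are raw counts, 1 row a gene symbol, not normalized. The submitters' processing notes name Bowtie 0.12.2 and the build hg18, without a role. Counting program, annotation and strand use are not given in the sources used here. In 28 rows gene symbols had become dates, and these held 0.217% of counts.

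Genes with 10 or more counts in 2 or more libraries were scaled by TMM and tested with edgeR 4.0.16 in R 4.3.3 (quasi-likelihood, two-sided, terms for cell line and treatment, 1 residual degree of freedom). Libraries were paired by their cell line, and the common dispersion was 0.00819 with this term and 0.561 without it. Within-line differences used a prior count of 2 and exact binomial 95% intervals. The 95% intervals of the difference between the lines were normal approximations from the counts of every library. DESeq2 1.42.0 was the alternative test, and the scripts were tested on simulated data. Depth was 5530129 to 13774288 counts, and standard errors of members were 0.0988 to 0.195 on the log2 scale. Each standard error was derived from edgeR's test, as the absolute log2 fold change over the square root of the F statistic.

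Positions and transcript lengths came from GENCODE 29 (GRCh38) and promoters from RefSeq (GRCh38.p14), the most upstream window of each gene, neither of them the build named by the submitters. The members and lists were chosen with earlier results of these data known. Described with every library were SHMT2, members with an adjusted p under 0.05 and the member with the smallest P of each of 10 role groups. Others at an unadjusted P up to 0.05, those with opposite directions and the 3 highest were given by fold change, and between the lines every member called. MCM6 and LIG1 were given with every library after their values were seen. Alternatives were other filters, scalings, tests and terms, thinned libraries and leaving out a line or condition.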

Additional observations from a re-analysis of the deposited data

Results flagged for a closer look

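In 8 of the 49 genes the knockdown difference had opposite signs in the 2 lines, as it had in 6392 of the 14024 genes tested. The difference between the lines was not tested, because there was 1 library for each line and condition. On the log2 scale, SW480 minus SW620, it was -0.24 for ORC2, -0.17 for ORC5, -0.19 for RFC1, -0.32 for RFC5, -0.22 for POLA1 and -0.26 for RPA2, which were lower after knockdown in SW480 and higher in SW620. It was 0.41 for LIG1 and 0.25 for RPA3, which were higher in SW480 and lower in SW620. The 95% counting interval of this difference held 0 for ORC2 (-0.53 to 0.04), ORC5 (-0.49 to 0.15) and RPA3 (-0.13 to 0.62). It did not hold 0 for LIG1 (0.21 to 0.61), RFC5 (-0.53 to -0.12), RFC1 (-0.36 to -0.02), POLA1 (-0.43 to -0.02) and RPA2 (-0.52 to -0.01). Exons of RFC5 overlap WSB2 and those of RPA3 overlap UMAD1, each on the other strand.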

How the results depend on the processing

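The 3 members lower at an adjusted p under 0.05 became 0 with a limit of 50 counts, 1 with total counts, 1 with the DESeq2 Wald test and 1 with thinned libraries. The adjusted p of CDC6 was then 0.0962, 0.0545, 0.603 and 0.0638 in this order, that of MCM10 0.103, 0.0686, 0.662 and 0.103, and that of PCNA 0.0598, 0.0273, 0.0379 and 0.0313. Without the replicate block, the cell line that pairs the libraries, 0 members passed after adjustment and 0 in place of 23 at an unadjusted P up to 0.05. The DESeq2 Wald test gave 10 in place of 23, and the remaining alternatives gave 19 to 23. The 1 member lower in SW620 after adjustment became 2 with a limit of 50 counts, DESeq2's size factors or total counts, and the 2 at the unadjusted limit became 1 with DESeq2 and 1 with the cell line alone. The 34 members higher in SW620 became 24 with DESeq2 and 28 to 34 elsewhere. Of the other replication genes, the DESeq2 Wald test called 0 in place of 1 (DNA2), and 3 in place of 9 at the unadjusted limit. The share of promoters with the E2F motif was 31.0% over the 250 bases before the start. Over the same bases it was 2.78% of all promoters and 4.42% of those of genes tested. Shares of all genes called were taken for the main fit only, and the cause of these changes was not tested.

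The count of members lower after knockdown, 48 over both lines, was 43 to 47 with either line left out, and their median was -0.29 to -0.20. The count of members higher in SW620, 43 in direction alone, was 42 to 45 within 1 condition. The sign turned for values near 0: ORC4 with thinning (0.000265), ORC5 with total counts (0.00203) and POLA1 without the replicate block (0.0108) for the knockdown. Between the lines it turned for DSCC1 with no filter (-0.00436), total counts (-0.0157) and thinning (-0.00554), and for TIPIN with total counts (-0.00677), thinning (-0.0425) and no treatment term (-0.00728).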
